A study of Homo sapiens with 19 samples.

Results

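The RNAs bound by G3BP1 in SH-SY5Y cells were compared before and after sodium arsenite (AS) treatment. A gene entered the comparison if its value was above 0 in at least 2 of the 4 G3BP1 eCLIP-seq libraries, which 18888 of the 19942 rows of the deposited table did. SH-SY5Y is an established human neuroblastoma cell line with a neuron-like character. The untreated group (Ctrl) and the AS group each held 2 libraries, numbered 1 and 2, made with an anti-G3BP1 antibody from the soluble lysate of UV-irradiated cells. The sample titles set the groups. The treatment field gives 50 mM for 1 h on all 4 samples, the untreated ones included, whereas the rRNA-depleted AS library is labelled 500 µM for 1 h, which is also the dose in the methods for AS exposure of these cells. The labels do not say whether the duplicates came from separate cultures, so every test measures only the spread between these libraries, which may be technical. The other libraries of the study were used only as references: G3BP2 eCLIP, RNA-seq after control knockdown (siCtrl), RNA-seq of lysate (Total) and of stress granule cores (SG), and rRNA-depleted RNA-seq with and without AS. Total and SG both came from AS-treated cells per the methods. The treatment field of siCtrl, Total and SG also gives 50 mM for 1 h.

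G3BP1 is an RNA-binding protein with an RNA recognition motif and disordered regions. When translation stops, for example after AS activates the kinases that phosphorylate eIF2α, untranslated mRNAs accumulate and G3BP1 condenses with them into cytoplasmic stress granules (SGs). In eCLIP, UV light links the protein to the RNA it touches, the complex is immunoprecipitated, and the attached RNA is sequenced together with a size-matched input (SMInput). A rise in an eCLIP value can reflect more binding per molecule or more of the RNA, and a table of eCLIP values alone cannot tell these apart.

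Markers of the labelled cell line were present with 1 exception. In the siCtrl library 18 of the 19 adrenergic neuroblastoma markers reached 10 TPM, with UCHL1 at 988 TPM and the exception TH, tyrosine hydroxylase, at 0.304 TPM. Of the 15 mesenchymal-type markers, 7 reached 10 TPM, led by VIM at 1514 TPM, and PRRX1 was listed at 0.

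Each deposited value is log10(n + 1) of a whole number n per gene. The summed n was 23985025 and 6790448 in the untreated libraries and 22678678 and 4268911 in the AS libraries, so the libraries numbered 1 were the deeper ones in both groups. Values are given below as log10(scaled n + 1), with each library scaled to the same total of n. Where no scale is named, a value is on this scale, and a difference of 1 is a 10-fold difference of n. Of the genes just inside the limit, 728 were above 0 in exactly 2 libraries, with a median largest n of 9, and the highest was RAB34 at 274. Just outside it were 385 genes above 0 in 1 library, with a median largest n of 4 and EMD highest at 144.

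The 4 libraries did not sort by treatment. Across the 18888 genes the highest Pearson correlation among the 6 pairs was 0.961, between Ctrl 1 and AS 1, and the lowest was 0.889, between Ctrl 2 and AS 2. The untreated duplicates correlated at 0.925 and the AS duplicates at 0.902. Each G3BP1 library lay closer to the G3BP2 library of the same treatment and number than to any other G3BP1 library. These correlations were 0.986 for Ctrl 1, 0.941 for Ctrl 2, 0.986 for AS 1 and 0.911 for AS 2. Other pairs of G3BP1 and G3BP2 libraries were not compared. All of these points share a wide range of gene spans, which raises every correlation. The study lists 1 SMInput library for each treatment and number, so the G3BP1 and G3BP2 values of a pair may have been normalized to the same input. How much of the likeness comes from a shared input was not tested. For that reason the G3BP2 values given below are set side by side and are not a separate replicate of the AS effect.

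**Figure D1:**
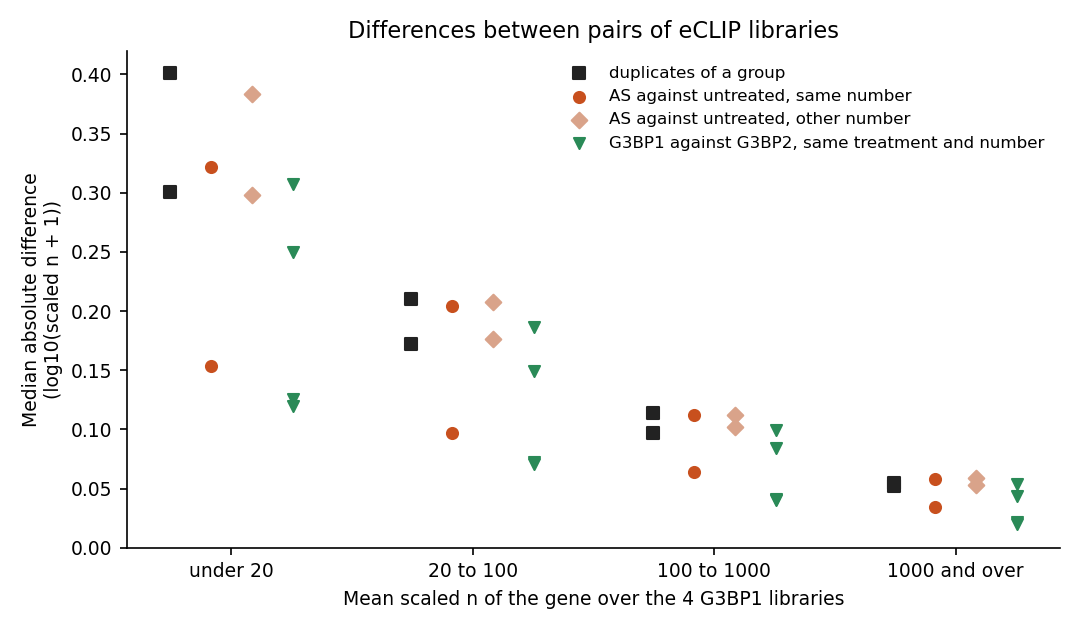
Median absolute difference of log10(scaled n + 1) between pairs of libraries, by the mean scaled n of the gene. Among genes of 1000 and over, the untreated duplicates differed by 0.052 and AS 1 differed from Ctrl 1 by 0.0343, while Ctrl 1 of G3BP1 and of G3BP2 differed by 0.022.

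No gene passed the test for a difference in G3BP1 eCLIP value under AS. With limma and Benjamini-Hochberg adjustment over 18888 genes, 0 were higher and 0 were lower (0% in each direction), and the smallest adjusted p was 0.996. Without adjustment, 255 higher genes (1.35%) and 235 lower ones (1.24%) had a p under 0.05. Both AS libraries lay above both untreated libraries for 2506 genes (13.3%) and below both for 2739 (14.5%). Over all genes the median difference was −0.0037. Scaling each library to the same total removes any overall rise or fall under AS. This median and the medians of gene classes below therefore cannot measure one. The half-width of the 95% interval for a gene's difference had a median of 0.13 among the 2508 genes of a mean scaled n of at least 1000, a 1.34-fold difference. It was 0.94, or 8.69-fold, among the 3051 genes under 20. A difference as large as 0.3 in either direction was seen for 17 of the former and 1130 of the latter genes. Leaving out Ctrl 2 turned 2 genes, DAG1 and CS, into calls, and leaving out AS 1 moved the unadjusted count of lower genes from 235 to 1433.

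The differences in the 2 replicate numbers were nearly unrelated. Across the 18888 genes the difference between AS 1 and Ctrl 1 had a Pearson correlation of 0.014 with that between AS 2 and Ctrl 2, which share no library. Of these genes, 48.5% had the same sign in both. Restricting to the 2508 genes of highest value gave a correlation of 0.01 and 48.9% with the same sign. These are descriptions over genes, which are not independent replicates. AS 2, the shallowest library, held 67 genes at 0 whose scaled n was at least 50 in each of the other 3 libraries, against 19 in Ctrl 2, 3 in Ctrl 1 and 3 in AS 1.

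**Figure D2:**
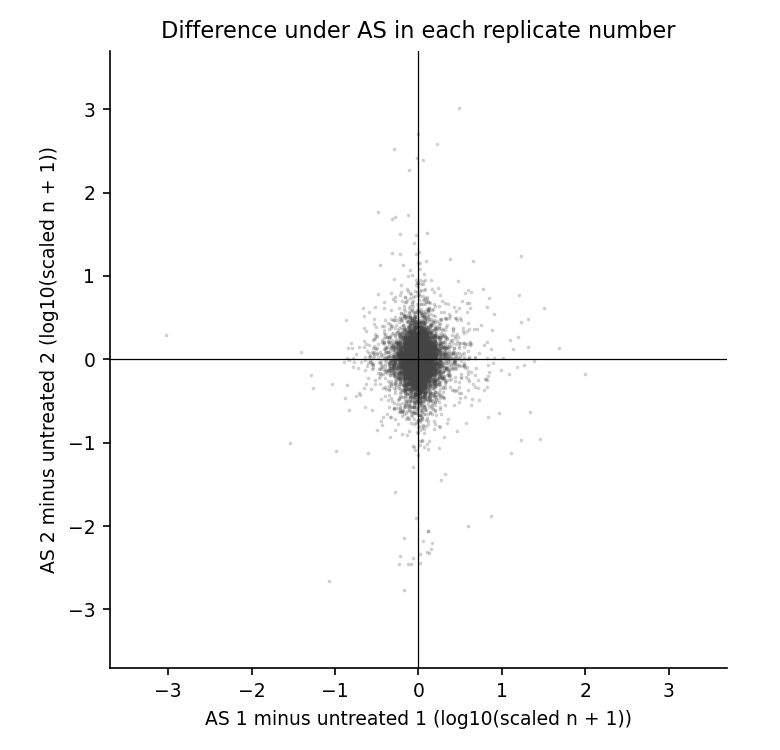
AS minus untreated difference of log10(scaled n + 1) in the libraries numbered 1 (x) and numbered 2 (y), 1 point per gene, for genes of a mean scaled n of at least 100. The points form a cloud around 0 with arms along the axes, and few genes lie far out along the diagonal where both numbers would move together.

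The mRNAs that the study also examined one by one had close values in the 4 libraries where their values were high. SPTBN1 (ENSG00000115306, chromosome 2, 54456317 to 54671446, plus strand), which encodes the membrane skeleton protein βII-spectrin, had 2.99 and 3.03 in untreated cells and 3.03 and 2.98 under AS. Its difference was −0.00 with a 95% interval from −0.14 to 0.13. PRKCA (ENSG00000154229, chromosome 17, 66302613 to 66810743, plus strand), a protein kinase C, had 3.58 and 3.65 against 3.55 and 3.53. The AS libraries of PRKCA lay below the untreated ones, by 0.03 and 0.12, and the interval of the difference ran from −0.17 to 0.03. TCF4 (ENSG00000196628, chromosome 18, 55222185 to 55664787, minus strand), a neural transcription factor, had 4.51 and 4.48 against 4.47 and 4.52, with an interval from −0.06 to 0.06. For these 3 mRNAs the intervals leave room for differences of less than 1.5-fold either way.

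EBPL, an emopamil-binding protein-like gene on chromosome 13, had 2.47 and 2.36 in untreated cells against 2.53 and 2.73 under AS, and both AS values were above both untreated values, with a difference of 0.22 and an interval from −0.04 to 0.47. TPT1, whose mRNA carries a terminal oligopyrimidine start, had 1.52 and 0.88 against 1.11 and 1.98. HMOX2, haem oxygenase 2, which the study names as a gene without eCLIP peaks, had 1.12 and 1.35 against 0.00 and 1.84. The AS duplicates of HMOX2 lay on either side of its untreated pair, and the groups of TPT1 overlapped. MIF, a cytokine gene, was listed at 0 in all 4 libraries although it reached 870 TPM in siCtrl, and it overlaps another gene of the table. So do HMOX2, G3BP1 and G3BP2, and among the genes described below MAPK10, ATXN2, TXNRD1, EIF2AK2 and OR51E2. For genes outside the naming rule given under processing, overlaps were not looked up. The transcripts of the G3BP genes themselves had overlapping groups: G3BP1 had 3.22 and 3.11 against 3.13 and 3.19, and G3BP2 had 3.59 and 3.43 against 3.50 and 3.56. The 2 intervals ran from −0.15 to 0.15 and from −0.14 to 0.18.

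The genes with the highest values were long genes, most of them known from neurons. MAPK10, a neuronal stress-activated kinase, had 4.95 and 4.97 against 4.96 and 4.98. KCNMA1, a calcium-activated potassium channel, had 4.95 and 4.92 against 4.95 and 4.94. The other 3 of the top 5 were ANK2, DMD and RBFOX1, with differences of 0.04, 0.00 and 0.02. DMD and RBFOX1 stood at 0.00618 and 0.00204 TPM in siCtrl, a poly(A) library per the methods. In the rRNA-depleted libraries, 1 per condition, DMD had a signal of 10.1 without and 28.9 with AS. The signal of RBFOX1 there was 5.00 and 3.61. Across 18861 genes the mean value had a Pearson correlation of 0.864 with the log10 genomic span of the gene, and the difference under AS had one of 0.053.

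Among genes with a mean scaled n of at least 20 whose groups did not overlap, several of the largest differences were between 0 and a moderate value. RPL18, a ribosomal protein gene of the large subunit (chromosome 19, 48615328 to 48619184, minus strand), was 0 in both untreated libraries and 1.82 and 2.38 in the AS libraries. In the G3BP2 libraries RPL18 had 1.36 and 1.17 against 1.82 and 1.62. TAGLN2, an actin-binding protein, was 0 and 0 against 1.88 and 1.61. Both genes were thus at 0 in the duplicate that had 23985025 as its summed n. RPL13 had 0.82 and 0.00 against 1.54 and 2.07, and COA4, a cytochrome oxidase assembly factor, had 0.58 and 0.00 against 1.40 and 1.90. DIABLO, which counters inhibitors of apoptosis, had 2.17 and 0.00 against 2.65 and 3.02. GSTA4, a glutathione transferase for lipid peroxidation products, had 1.31 and 0.00 against 2.04 and 2.32, and CIB2, a calcium-binding protein, had 2.40 and 0.00 against 2.62 and 2.58. In DIABLO and CIB2 the size of the difference came mostly from a 0 in Ctrl 2. In GSTA4, also at 0 there, the difference was 1.52 with and 0.87 without Ctrl 2. DAZ2 also met the rule, but it belongs to a family of near-identical copies among which reads cannot be placed, and its values are not given. DIABLO, CIB2 and COA4 overlap other genes of the table, as do GGCT, ACTL6A, MPC2 and PRKRA, which are named next.

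At the low end, PARN, a poly(A)-specific ribonuclease (chromosome 16, 14435700 to 14632728, minus strand), had 1.77 and 2.08 in untreated cells and 0 in both AS libraries. The G3BP2 libraries gave PARN 1.65 and 1.73 against 1.92 and 1.86, all above 0. PFDN5, a prefoldin subunit, had 1.37 and 2.66 against 0.30 and 0.00. CEP20, a centrosomal protein, had 1.23 and 1.92 against 0 and 0, and GGCT, which acts in glutathione breakdown, had 1.03 and 2.05 against 0 and 0. The last 4 of this end owed most of their size to AS 2 alone, where each was at 0. TPP1, a lysosomal peptidase, had 2.37 and 2.77 against 2.19 and 0.00. ACTL6A, a chromatin remodelling subunit, had 2.44 and 2.46 against 2.21 and 0.00. MPC2, a mitochondrial pyruvate carrier subunit, and PMPCA, a mitochondrial processing peptidase subunit, had 1.39 and 1.49 in AS 1, and their untreated values were 2.02 and above. In all, 38 genes were at 0 in both untreated libraries and above 0 in both AS libraries, and 50 showed the opposite pattern. A mean scaled n of at least 20 was reached by 4 of each.

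**Figure D3:**
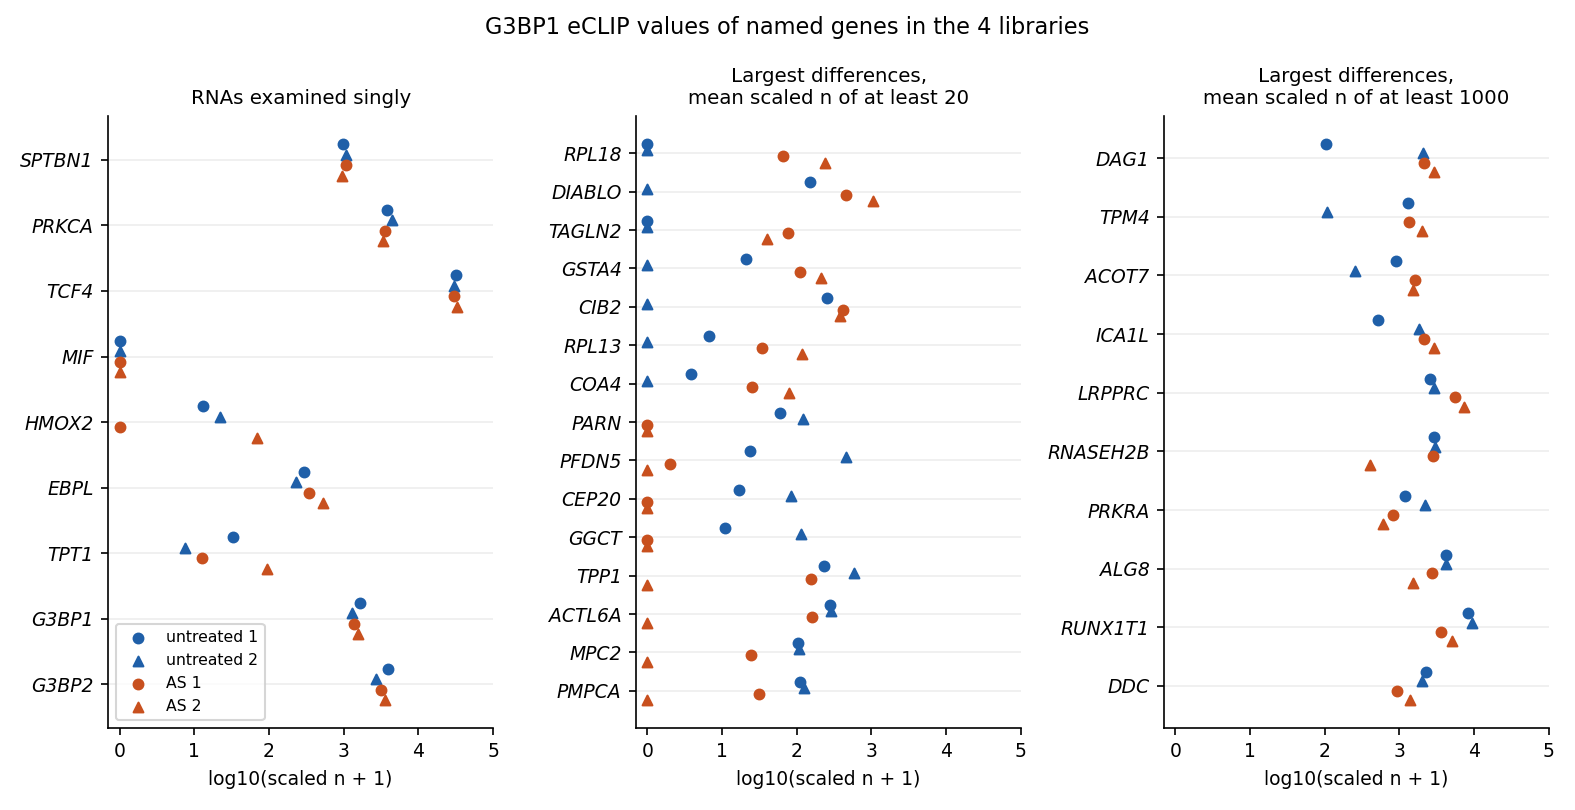
log10(scaled n + 1) in the 4 G3BP1 libraries for the genes examined singly (left) and for the genes with the largest differences and groups that do not overlap, at a mean scaled n of at least 20 (centre) and at least 1000 (right). Blue marks untreated and orange AS libraries, and circles and triangles are numbers 1 and 2. In the centre many differences rest on a single library at 0, and on the right LRPPRC separates with duplicates close together.

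At high values the differences were smaller. LRPPRC, which stabilizes mitochondrial mRNAs (chromosome 2, 43886224 to 43996226, minus strand), had 3.41 and 3.47 in untreated cells and 3.74 and 3.86 under AS. The difference of 0.36 ± 0.05 (SE) was a 2.31-fold higher n, larger than the spread of its duplicates, with an unadjusted limma p of 0.00067 and an adjusted p of 0.996. RUNX1T1, a transcriptional corepressor on chromosome 8, had 3.92 and 3.97 against 3.55 and 3.71, a difference of −0.31 ± 0.06. DDC, the decarboxylase that makes dopamine and a marker of the adrenergic state, had 3.36 and 3.30 against 2.96 and 3.15, a difference of −0.27 ± 0.07. All genes of this group were chosen for AS values on one side of both untreated values, so a like sign in both numbers follows from the choice. ALG8, an enzyme of N-glycan assembly, had 3.62 and 3.63 against 3.43 and 3.18. PRKRA, an activator of the kinase PKR, had 3.07 and 3.34 against 2.91 and 2.79. ACOT7, an acyl-CoA thioesterase of neurons, had 2.96 and 2.41 against 3.21 and 3.18.

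The remaining members of this group each turned on 1 library. DAG1, the dystroglycan gene, had 2.02 and 3.32 against 3.33 and 3.47, and its low value in Ctrl 1 was matched by 1.84 in the Ctrl 1 library of G3BP2, whose duplicate had 3.33. Without Ctrl 2, DAG1 passed the test (difference 1.38, limma adjusted p = 0.0453). CS, citrate synthase, passed it in the same setting (difference 1.79, limma adjusted p = 0.0453) with values of 1.34 and 3.11 against 3.02 and 3.24. Both calls then set the low Ctrl 1 value alone against the AS pair. TPM4, a tropomyosin, had 3.12 and 2.03 against 3.12 and 3.31, and the low Ctrl 2 value stood beside 1.32 in the Ctrl 2 library of G3BP2. ICA1L had 2.71 and 3.27 against 3.33 and 3.47, and RNASEH2B, a subunit of ribonuclease H2, had 3.47 and 3.48 against 3.45 and 2.61. NOSIP, a nitric oxide synthase-interacting protein chosen after its values were seen, had the smallest unadjusted limma p of the table, 0.00018. It had 1.95 and 1.91 in untreated cells and 2.72 and 2.76 under AS, a 6.43-fold difference, and in G3BP2 1.70 and 1.77 against 2.64 and 2.81.

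SG-enriched mRNAs were those above 1 TPM with a fold of TPM + 1 above 2 in SG cores over Total. They were compared with SG-depleted ones to ask whether G3BP1 binding of SG mRNAs in the soluble lysate rises under AS. The study reports considerable G3BP protein in the insoluble fraction under stress, and these libraries do not cover that fraction. The median value of the 8306 SG-enriched genes tested was 2.42 and 2.43 in untreated cells and 2.41 and 2.44 under AS. The median of the 1186 SG-depleted genes was 1.67 and 1.71 against 1.72 and 1.73. The untreated and AS libraries thus overlapped for the enriched class and did not for the depleted class. The gap between the classes was 0.75 and 0.72 in untreated cells and 0.70 and 0.71 under AS, a difference of −0.03. In an exact two-sided permutation test over the 4 libraries this gave p = 0.333, the smallest that 2 libraries against 2 allow. The median change of single genes was −0.00422 in the enriched class, −0.00718 in the depleted class and −0.00691 in the 3626 genes of neither class. In the depleted class this sign was opposite to that of the class median, which was higher under AS. The sign of the change in the gap therefore depended on the measure. Of the enriched genes 1041 lay higher and 1243 lower in both AS libraries, and of the depleted genes 183 and 187, beside 13.3% and 14.5% over all genes. Across 6993 genes above 1 TPM in both libraries and with a mean scaled n of at least 100, the difference under AS had a Spearman correlation of 0.0074 with the enrichment in SG cores.

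The make-up of the libraries was also close. SG-enriched genes held 61.2% and 61.9% of the summed n in untreated cells and 60.9% and 62.2% under AS. Genes listed at 0 TPM in all 5 TPM libraries, 2429 in number, held 3.46% and 3.40% against 3.51% and 3.39%. Genes that span over 500 kb, of which there were 323, held between 22.8% and 23.1% in every library, and the 100 genes of largest value held between 16.5% and 16.7% in every library. The only classes with separate groups beside chromosomes were those of spans from 50 to 200 kb, with 36.2% and 36.3% against 36.5% and 36.6%, SG-depleted genes, with 1.98% and 2.02% against 2.03% and 2.06%, and genes of neither class, whose mean share was higher by 0.0832 percentage points under AS. Each had an exact permutation p of 0.333. A value was above 0 in both untreated libraries for 17774 genes and in both AS libraries for 17237, and a scaled n of at least 10 was reached in both by 15982 and 15930.

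The immediate-early genes had the lowest median difference of the 15 lists measured, −0.10. These are transcription factors of the AP-1 and EGR families and their feedback regulators, whose short mRNAs appear within minutes of stress. None of the 25 tested passed the adjusted test, 2 lower and 0 higher members had an unadjusted p under 0.05, and the groups did not overlap for 3 higher and 10 lower, where all genes gave 13.3% and 14.5%. FOS, named like the other members of this list after its values were seen, had 1.60 and 2.05 in untreated cells and 0.84 and 1.29 under AS, a difference of −0.76 ± 0.26 (SE) with an unadjusted limma p of 0.03. EGR1 had 1.18 and 1.69 against 0.17 and 0.80, a difference of −0.95 ± 0.34. JUN had 1.44 and 1.83 against 0.90 and 1.22, and DUSP1, a phosphatase that switches off MAP kinases, had 0.93 and 1.10 against 0.30 and 0.56. In these 4 genes, picked among the 10 lower members, both AS libraries were the lower ones, and EGR1 and DUSP1 had a mean scaled n of 16.9 and 5.66, where single differences are least precise. The 3 higher members were EGR2, with 2.31 and 2.22 against 2.33 and 2.42, KLF6, with 1.74 and 1.73 against 1.78 and 2.05, and KLF2, with 1.02 and 0.63 against 1.20 and 1.06. The RNA of FOS, EGR1, JUN and DUSP1 stood the other way in the rRNA-depleted libraries, where there was 1 library per condition and no test. FOS had a signal of 0.768 without and 236 with AS, EGR1 0.408 and 134, JUN 3.47 and 100.4, and DUSP1 2.35 and 19.1. In SG cores, a preparation separate from the soluble lysate of the eCLIP libraries, FOS reached 802 TPM and EGR1 3277 TPM. The G3BP2 libraries gave FOS 1.73 and 1.91 against 1.36 and 0.84, and EGR1 0.94 and 1.22 against 0.00 and 0.59. ATF3, the member of highest value, had 2.65 and 2.78 against 2.45 and 2.74, and its groups overlapped. The median difference of the list was −0.13 in number 1 and −0.01 in number 2.

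**Figure D4:**
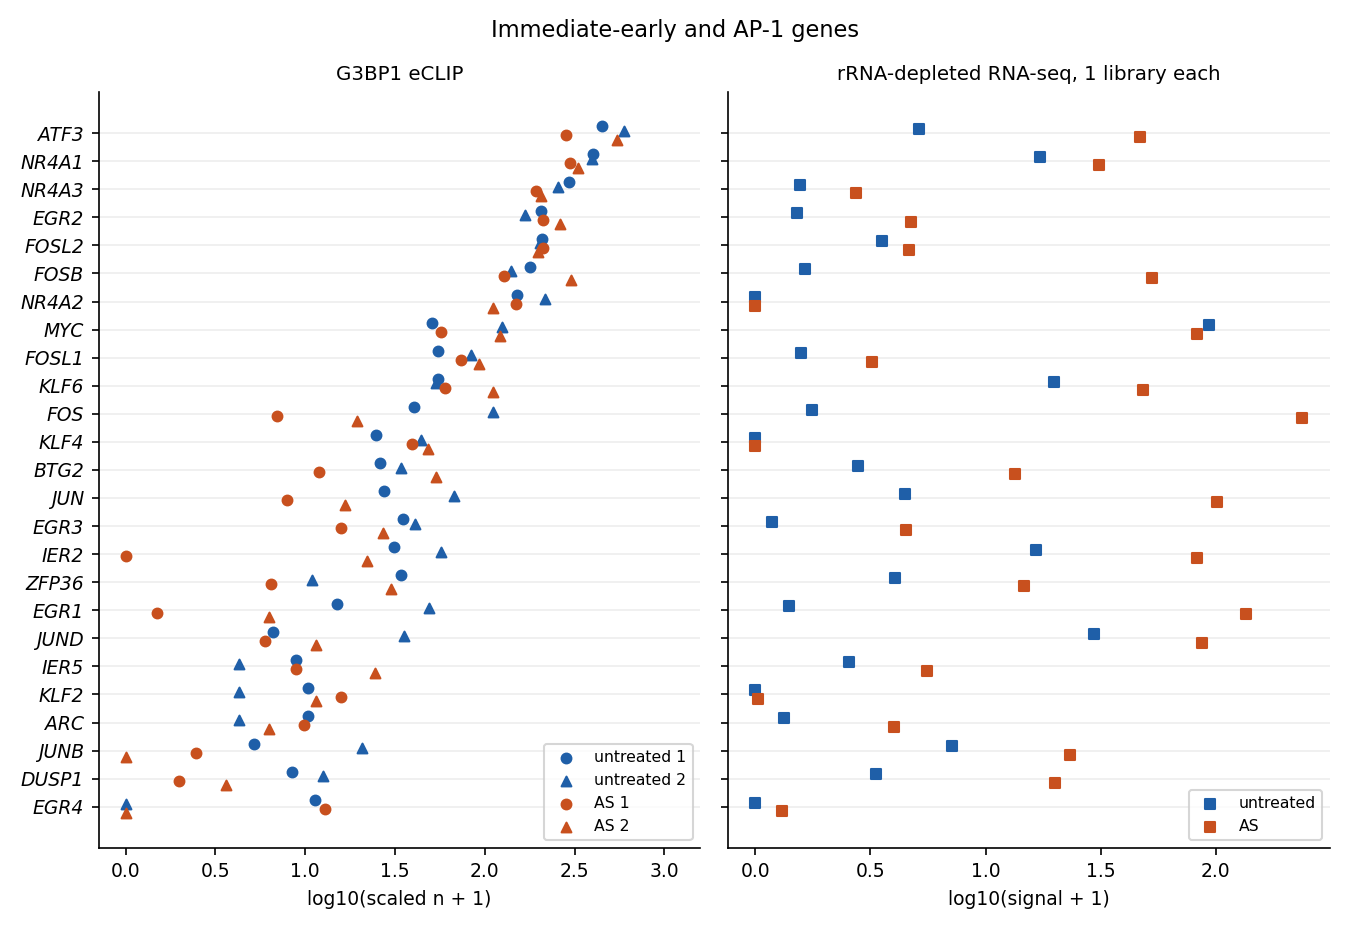
Left, log10(scaled n + 1) of the 25 immediate-early and AP-1 genes tested in the 4 G3BP1 libraries, ordered by mean scaled n. Right, log10(signal + 1) of the same genes in the rRNA-depleted libraries, 1 per condition. FOS, JUN, EGR1 and DUSP1 lie lower under AS on the left and higher on the right.

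Genes of SG proteins, which encode the proteins that build the granules, were all tested. Of the 45, 1 was higher and 10 were lower in both AS libraries, beside 13.3% and 14.5% of all genes, 1 had an unadjusted p under 0.05, and none passed the adjusted test. The median difference was −0.00722. TIA1, an SG-nucleating RNA-binding protein, had 2.85 and 3.09 against 2.66 and 2.79. HDAC6, a deacetylase found in SGs, had 2.84 and 2.93 against 2.72 and 2.72, and YBX3, a cold shock domain protein, had 2.55 and 2.69 against 2.39 and 2.25. CAPRIN1, a direct partner of G3BP1, had 2.67 and 2.22 against 2.62 and 2.75, and UPF1, the helicase of nonsense-mediated decay, was the one higher member with 2.32 and 2.32 against 2.35 and 2.55. ATXN2 had the highest value of the list, a scaled n of 5489 and 9943 against 6979 and 10941, with overlapping groups and a difference of 0.07 on the log10 scale. The duplicates of ATXN2 in both groups and the untreated duplicates of CAPRIN1 differed by more than the groups did, while those of HDAC6 did not.

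Cytosolic ribosomal protein genes had members on both sides. Of 78 in the list 74 were tested, and 16 were higher and 9 lower in both AS libraries, beside 13.3% and 14.5% of all genes. The median difference was 0.03, with 41 members above and 33 below 0. None passed the adjusted test, while an unadjusted p under 0.05 was reached by 3 higher and 2 lower members. Beside RPL18 and RPL13, RPL34 had 1.13 and 1.15 against 1.75 and 1.77. RPL27 was 0 in both AS libraries and 0.29 and 2.28 in untreated ones. Members thus differed in both directions. RPL37A, the member of highest value, had 2.45 and 2.68 against 2.51 and 2.55. Ribosomal protein genes have many processed pseudogenes, and how reads that also match those were treated is not given in the sources used here. The list's median was 0.01 in number 1 and 0.09 in number 2.

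**Figure D5:**
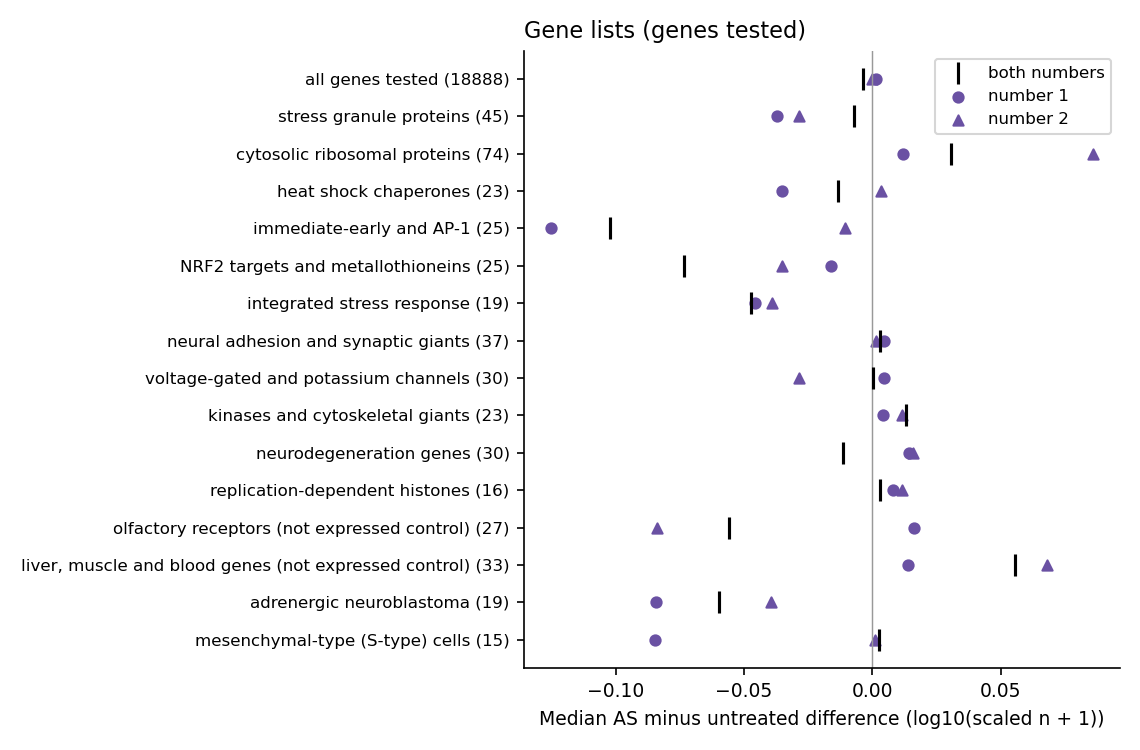
Median AS minus untreated difference of log10(scaled n + 1) for each gene list, with the number of genes tested in brackets, over both replicate numbers (bar) and within number 1 (circle) and number 2 (triangle). The long neural adhesion genes lie near 0, as all genes do. The control lists of olfactory receptors (−0.06) and of liver, muscle and blood genes (0.06) lie about as far out as several stress lists.

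No stress-response gene passed the adjusted test. Of 23 heat shock chaperone genes tested, 2 were higher and 4 lower in both AS libraries, where all genes gave 13.3% and 14.5%, as for the next lists. HSPA1A, the main inducible HSP70 gene, was listed at 0 in all 4 libraries. How reads that match several genes were counted is not given, so this 0 does not show absent binding. HSPA5, the chaperone of the endoplasmic reticulum, had 1.97 and 2.46 against 1.89 and 0.00, and CRYAB had 2.13 and 1.93 against 2.28 and 2.42. HSPA4L had the highest value of the list and a difference of −0.07. Of 25 NRF2 targets and metallothioneins, 1 was higher and 4 were lower, with a median difference of −0.07. The higher one was TXNRD1, thioredoxin reductase, with 3.19 and 2.98 against 3.29 and 3.27, and HMOX1, the haem oxygenase induced by AS, had 2.12 and 2.17 against 2.04 and 2.11. Of 19 genes of the integrated stress response, 0 were higher and 4 lower, with a median of −0.05. DDIT4, an inhibitor of mTORC1, had 1.22 and 1.24 against 0 and 0, at a mean scaled n under 20, where single differences are least precise. ATF4 had 1.53 and 1.89 against 1.49 and 1.81, and DDIT3 had 1.25 and 1.61 against 1.42 and 1.81. EIF2AK2, the PKR gene, had a difference of 0.00.

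The long neural adhesion genes had the narrowest range of differences among the lists. Over 37 genes of cell adhesion and synapses the median difference was 0.00293 and the range −0.04 to 0.04, with 6 higher and 6 lower in both AS libraries, beside 13.3% and 14.5% of all genes. Over 30 channel genes the median was 0.00034 and the range −0.61 to 0.08, with 5 in each direction. Over 23 kinase and cytoskeletal genes the median was 0.01 and the range −0.11 to 0.20, with 3 in each direction. Of 30 neurodegeneration genes, with a range of −0.27 to 1.23, 5 were higher and 5 lower. SOD1, superoxide dismutase, had 0.58 and 0.00 against 1.53 and 1.51. The G3BP2 libraries gave it 0 and 0 against 1.55 and 1.27. The mean scaled n of SOD1 was under 20, where single differences are least precise. APP, the amyloid precursor gene, had 3.43 and 3.62 against 3.59 and 3.55. MAPT, the tau gene, had 2.23 and 2.30 against 2.32 and 1.90. In both APP and MAPT the groups overlapped. None of these genes passed the adjusted test.

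Genes with little or no RNA in this line also had groups that did not overlap, which over all genes were 13.3% higher and 14.5% lower. Of 35 olfactory receptor genes, 0 of which reached 1 TPM in siCtrl, 27 were tested, and 4 were higher and 6 lower in both AS libraries, with a median of −0.06. OR51E2 had 1.82 and 1.99 against 1.87 and 1.90 while listed at 0 TPM in all 5 TPM libraries. Of 34 liver, muscle and blood genes, 1 of which reached 1 TPM, 33 were tested, 8 were higher and 5 lower, and the median was 0.06. TNNT2, a cardiac troponin, had the highest value of that list, 3.11 and 3.01 against 2.97 and 2.78, at 1.57 TPM in siCtrl. Of 33 replication-dependent histone genes 16 were tested, with a median of 0.00283, 3 higher and 0 lower. The adrenergic markers had a median of −0.06, with 1 higher and 2 lower of 19, and ELAVL4 as the highest with a difference of −0.04. The 15 mesenchymal-type markers had a median of 0.0027, with 0 higher and 4 lower, and CD44 the highest with a difference of 0.04. None of the 13 mitochondrially encoded mRNAs was in the table used here.

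The study described a palindromic motif as the leading one in G3BP1 peaks with and without AS, and its 2 DNA forms are shown because they allow genes with and without it to be compared:
first form: CCAGCCTGG
second form: CCAGGCTGG
The forms are reverse complements of each other, so a search of either strand finds both. At least 1 form was present in the longest GENCODE 44 transcript of 6841 genes tested (36.3%) and in the genomic span of 16820 (89.2%). The median difference under AS was −0.00645 in genes with a match in that transcript, with quartiles of −0.08 and 0.07, and −0.00287 in genes without one, with quartiles of −0.09 and 0.08. The quartile ranges of the classes overlapped almost whole. The longest transcript of a gene can be a retained-intron form, as in LRPPRC and TPM4. In the longest TPT1 transcript, a protein-coding one of 4814 bases, the first match lay in the 3′ UTR. It is given with 10 bases on each side, the motif in capitals, in GRCh38 coordinates:
TPT1 (chromosome 13, 45335707 to 45335735, minus strand, exon 6): gccatgtggcCCAGGCTGGtctgaaaact
The table gives no peak positions, so a match is not a measured binding site. The untreated and AS values of TPT1 overlapped, as given above.

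No gene passed the test of a different response to AS in G3BP1 and G3BP2. In limma's interaction term over 19259 genes and 8 libraries, 0 genes passed the adjusted test, with a smallest adjusted p of 0.57, and 150 (0.779%) had an unadjusted p under 0.05. The designs have 2 libraries per group, and a miss of the threshold does not show that the proteins responded alike.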

How the data were processed

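Per the authors, eCLIP reads were trimmed and deduplicated by molecular identifier with fastp, aligned to GRCh38 with STAR, called as peaks with CLIPper and normalized to SMInput, with GENCODE release 41. The deposited eCLIP values are log10 values of a whole number n plus 1 per gene, and which of these steps n includes is not given in the sources used here. Among n of 1 to 18, 75.3% to 84.8% of values were even numbers. The authors deposited TPM for knockdown, Total and SG libraries (HISAT2 2.1.0 per the labels), and a signal per transcript for the rRNA-depleted libraries, whose columns sum to more than TPM can.

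Here n was recovered, scaled to the geometric mean of the 4 totals and tested as log10(scaled n + 1) with limma 3.58.1 (intensity trend, R 4.3.3), which was tested on simulated data. Exact permutation tests ran over libraries. Gene spans came from GENCODE 44. A rule named the genes the study examined singly, the 5 of highest value and each list's highest member. It also named the 8 and 5 extremes per direction with non-overlapping groups at mean scaled n of at least 20 and 1000. The 3 highest at 0 in one group per direction were named as well. Of these, ZNF707 was not described, and some items are not reported here. Other genes described, among them TIA1, HSPA5, SOD1, APP, MAPT and NOSIP, fell outside this rule. The members and lists were chosen with earlier results of these data known. Alternatives covered scaling, pseudocount, filter, trend, replicate block and each left-out library. The depth of reads behind n is unknown.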

Additional observations from a re-analysis of the deposited data

How the results depend on the processing

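The adjusted calls stayed at 0 in each direction under every alternative except leaving out Ctrl 2, and ranged from 0 to 2 higher and 0 to 0 lower when 1 library was left out. The unadjusted counts, 255 higher and 235 lower, became 16 and 30 with unscaled values, and ranged over the left-out libraries from 147 (without AS 2) to 633 (without Ctrl 1) higher and from 82 (without Ctrl 2) to 1433 (without AS 1) lower. The median difference of all genes, −0.0037, was −0.114 unscaled, −0.0025 with median-ratio scaling, −0.000612 with no filter and −0.00218 with the stricter filter, and ranged from −0.0173 to 0.011 over the left-out libraries. That of SG-enriched genes, −0.00422, was −0.115 unscaled and ranged from −0.0163 (without Ctrl 1) to 0.00881 (without AS 1). The change under AS of the SG-enriched minus SG-depleted gap ranged from −0.0446 to −0.022 over the left-out libraries. The unadjusted interaction count, 150, was 48 unscaled, 274 with no filter and 98 with the stricter filter. Of 53 genes named by rule, 10 turned sign unscaled and 18 when some library was left out. The unscaled shift differed between genes: SPTBN1 went from −0.00241 to −0.115, but TPP1 from −1.47 to −1.38. Among genes that turned sign unscaled, the difference in the main setting exceeded its SE in ANK2 and RBFOX1. Their unscaled differences, −0.0700 and −0.0900, were well within the unscaled SEs of 0.741 and 0.724. Among genes that turned sign over the left-out libraries, the main difference exceeded its SE in ANK2 and ATF3. There ANK2 ranged from −0.00303 (without Ctrl 2) to 0.0889 and ATF3 from −0.259 to 0.0245 (without AS 1). The scaling alone shows the unscaled shift; the other causes were not tested.

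A replicate block in the limma model left 0 adjusted calls in each direction, and 336 higher and 306 lower genes then had an unadjusted p under 0.05. The labels do not say that a number marks a shared culture, and with 2 pairs the duplicate differences of the groups correlated at 0.151 across genes. AS 2 had the smallest summed n, and its zeros enter many of the largest differences. Whether depth gives those zeros was not tested.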

Other observations

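The value per kb of genomic span differed between chromosomes in a like way in the 4 libraries, which were compared without regard to treatment. The median scaled n per kb over the genes of a chromosome was highest for chromosome 7 in each library, at 6.13 and 6.38 in untreated cells and 5.98 and 6.12 under AS, where the median chromosome lay between 4.38 and 4.54. Chromosome 6 was lowest in 3 libraries and X in Ctrl 2. Among genes of at least 20 kb listed at 0 TPM in all 5 TPM libraries, the median on chromosome 7 was 6.75 per kb over 34 genes, beside 3.57 over all 735 such genes and 9.31 over 10 genes on chromosome 21. The median difference under AS lay between −0.0121 and 0.013 on the 23 chromosomes examined.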
